A study of Homo sapiens with 3 samples.

Results

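The locus described here is GATA2 on chromosome 3 with 150 kb on each side, seen in peak lists of HMGA1 chromatin immunoprecipitation sequencing (ChIP-seq) from DAMI cells, a human leukaemic line whose labels give its disease state as MPN/AML (myeloproliferative neoplasm and acute myeloid leukaemia). GATA2 spans 128198265 to 128212030 (hg19, minus strand), so the gene start is its higher coordinate and upstream means higher coordinates. A peak was a member where its summit lay in the gene or in a flank. This gave 5 of the 385953 peaks called over input DNA and 6 of the 263033 peaks called over histone H3. They were set against the other peaks of a 1.5 Mb window, from 127500000 to 129000000, and of the whole chromosome.

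The study has 3 libraries of 1 sample each, a ChIP for HMGA1, a ChIP for histone H3, and input DNA taken with no antibody. All came from DAMI cells grown in RPMI 1640 medium with fetal bovine serum, and the labels give no treatment or genetic change. The authors called peaks of the HMGA1 library over input (the input list) and over H3 (the H3 list). Both lists therefore share all HMGA1 reads, overlap between them is not replication, and no difference below has a replicate check or a p-value. A single line is the only model. Peak lists hold no expression, so neither GATA2 expression nor the labelled cell type was checked.

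GATA2 is a zinc-finger transcription factor that maintains blood stem and progenitor cells and acts early in the megakaryocyte and mast cell lineages. It binds GATA motifs in its own control elements, which include an intronic enhancer and a distal upstream enhancer. In leukaemias with an inversion or translocation of the long arm of chromosome 3, that distal enhancer is moved next to MECOM, a stem cell transcription factor gene. HMGA1 is an architectural chromatin protein whose AT-hooks bind AT-rich DNA in the minor groove. An H3 ChIP recovers DNA wrapped in nucleosomes, and input DNA shows what the sonicated chromatin holds before any antibody is added.

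The RefSeq promoter table (GRCh38.p14, minus strand) holds 2 promoters of GATA2, each 250 bases before to 50 bases after a start. They are shown as the sequence at the gene's starts, with their AT share, since HMGA1 binds AT-rich DNA. Whether AT share relates to peak calls was not tested. Capitals mark runs of at least 5 consecutive A or T bases, which read as such on both strands.
GATA2 upstream promoter: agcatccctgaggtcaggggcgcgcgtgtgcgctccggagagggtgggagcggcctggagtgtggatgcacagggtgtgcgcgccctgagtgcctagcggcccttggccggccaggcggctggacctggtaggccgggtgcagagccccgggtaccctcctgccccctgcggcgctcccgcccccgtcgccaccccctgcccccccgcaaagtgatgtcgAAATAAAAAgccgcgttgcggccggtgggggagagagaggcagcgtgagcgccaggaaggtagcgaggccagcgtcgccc
GATA2 internal promoter: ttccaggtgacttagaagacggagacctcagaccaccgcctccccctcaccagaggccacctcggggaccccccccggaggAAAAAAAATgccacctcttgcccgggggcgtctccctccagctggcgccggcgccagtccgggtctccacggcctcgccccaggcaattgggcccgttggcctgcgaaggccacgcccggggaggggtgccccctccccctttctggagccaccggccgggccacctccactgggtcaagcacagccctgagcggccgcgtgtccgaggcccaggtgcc

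A and T made up 27.7% of the upstream promoter and 28.7% of the internal promoter, against a median of 41.3% (quartiles 32.0 and 53.0) over 35116 promoters of 300 bases in the same table. Of those promoters, 14.3% had a lower AT share than the upstream promoter and 16.6% a lower share than the internal one. Each GATA2 promoter held 1 run of at least 5 A or T bases, 9 bases long in both. At least 1 such run was present in 76.5% of all promoters, and the median number was 2. A run is a description of the letters, not a binding site.

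No HMGA1 peak was called in GATA2. The gene, 13.8 kb long, held 0 peaks of the input list and 0 of the H3 list, so neither its start nor its introns had a call over either control. The peak-free stretch around it ran from 128118089 to 128235172 in the input list, 117.1 kb, and from 128118072 to 128235191 in the H3 list, 117.1 kb. On chromosome 3 the median distance between neighbouring peaks was 3.16 kb in the input list and 4.89 kb in the H3 list. Stretches as long made up 0.0925% of the 28096 input-list gaps (26) and 0.549% of the 17653 H3-list gaps (97), where gaps of 1 Mb or more were left out. They held 1.96% of the chromosome's bases over input and 8.24% over H3. In the window, the stretch that holds GATA2 was the longest of 90 gaps in the input list, ahead of another of 116.7 kb (128676659 to 128793355). In the H3 list it came after one of 124.4 kb (128675199 to 128799645).

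The summit nearest to the gene start lay 23.2 kb upstream in both lists. At points spaced 1 kb apart along chromosome 3, the median distance to a summit was 2.8 kb over input and 4.81 kb over H3. Of these points, 4.87% lay as far or farther over input, and 11.9% over H3. On the other side, the nearest summit lay 80.3 kb beyond the gene end in both lists. The peak-free stretch was thus not centred on GATA2, and more of it lay past the gene's end than before its start.

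**Figure D1:**
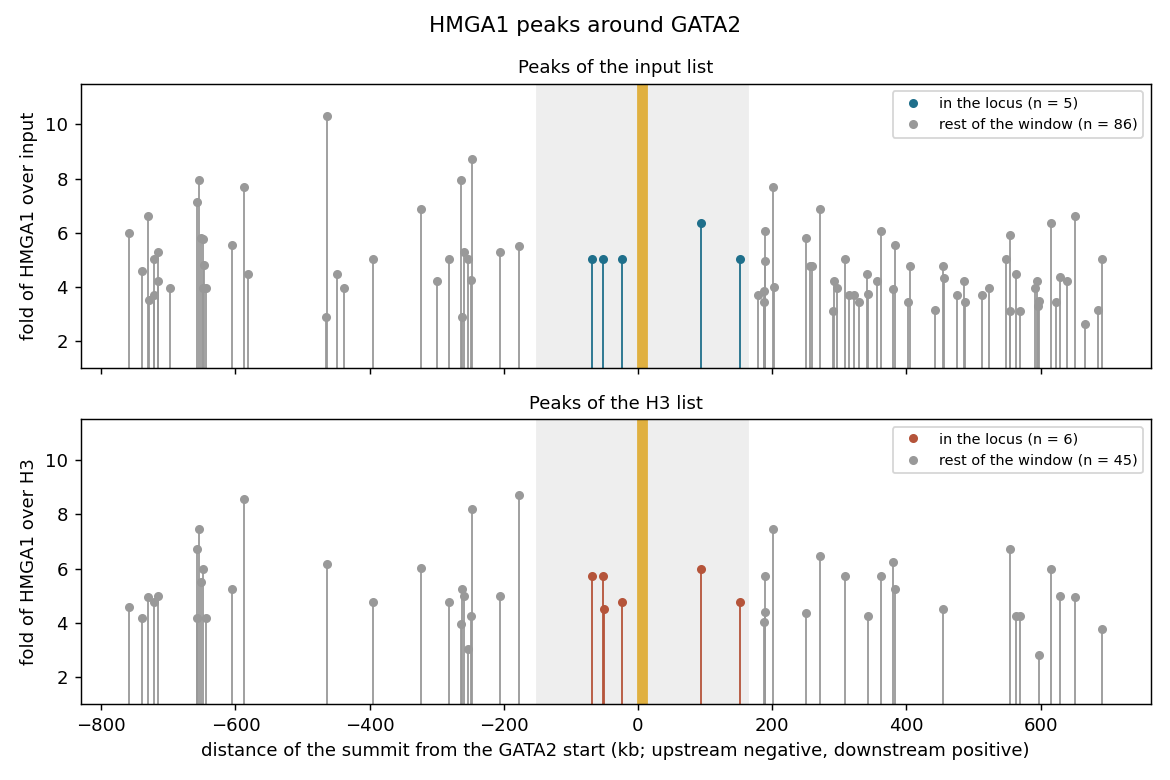
Each point is a peak of the input list (top) or of the H3 list (bottom). The horizontal axis gives its summit's distance from the GATA2 start in kb, and the vertical axis the authors' fold of HMGA1 over that control. The ochre bar is the gene and the grey band the flanks. The gene holds no peak, and the 5 input-list and 6 H3-list peaks of the flanks have folds between 4.51 and 6.35.

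Upstream of GATA2, the flank held 3 input-list peaks and 4 H3-list peaks, all within 68.3 kb of the gene start. The fold, p and q given for a peak are the authors'. Reads at a summit, here and below, are HMGA1 reads worked back from each peak's fold and p, and control levels were obtained in the same way. The lowest control level a list can show, its floor, was 2.78 reads for input and 2.19 reads for H3. For the fold over H3, HMGA1 reads are multiplied by 0.787, a factor fitted to the H3 list. H3 levels are not multiplied, but they are set against these reduced reads. The H3 floor is the input floor multiplied by that factor, so the floors differ by scale only. A level at the floor does not give the control's own reads.

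The peak nearest to the start lay from 128235173 to 128235409 in the input list and from 128235192 to 128235401 in the H3 list, with its summit at the same base in both. It had 18 HMGA1 reads against an input level at the floor of 2.78 reads, which gave a fold of 5.02 and a −log10 q of 7.71. Over H3, also at its floor, the fold was 4.75 and the −log10 q 5.81. In the input list 46.0% of the chromosome 3 peaks had more reads, and 837 peaks, this one included, had the same fold and p-value. In the H3 list the site, with the same 18 reads, ranked lower, with 71.1% of the chromosome 3 peaks above it in reads and 61.3% above it in fold. The H3 list holds fewer weak peaks: the first quartile of reads on chromosome 3 was 18, against 14 in the input list.

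A broad peak followed, 51.5 kb upstream of the start, from 128262880 to 128263868. It was 989 bp wide, and 1.55% of the input-list peaks of chromosome 3 were as wide or wider. It had 22 reads against an input level of 3.56 reads, with a fold of 5.05 and a −log10 q of 9.03. Over H3 the same site was called as 2 peaks, 182 bp apart. The one from 128263341 to 128263859 (519 bp) kept the input-list summit, with 22 reads and a fold of 5.74. The other, from 128262944 to 128263158 (215 bp), had its summit 434 bp away, with 17 reads and a fold of 4.51. This was the lowest fold among the members of the H3 list. It was exceeded by 69.5% of the H3-list peaks of chromosome 3.

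The peak farthest upstream in the flank lay from 128280189 to 128280454 in the input list and from 128280201 to 128280401 in the H3 list, 68.3 kb from the start. It also had 22 reads against an input level of 3.56 reads, a fold of 5.05 and a −log10 q of 9.03. Over H3 its fold was 5.74 and its −log10 q 8.27, and the summits of both lists were 1 bp apart. Beyond it no further peak was called up to the end of the flank. The next summit lay 177.0 kb upstream of the gene start, just outside the flank. It had 34 reads in both lists and folds of 5.52 over input and 8.7 over H3, more reads than any member. The distal enhancer's hg19 position is not in the sources used here, so no peak was assigned to it.

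Downstream of GATA2, beyond its last exon, the flank held 2 peaks in each list. The nearer one lay from 128117813 to 128118088 in the input list and from 128117838 to 128118071 in the H3 list. It had the most reads of any member, 23, and the highest fold in both lists, 6.35 over input and 5.99 over H3, with both controls at their floor. Its −log10 q was 11.9 over input and 9.1 over H3. On chromosome 3, 16.3% of the input-list peaks and 28.6% of the H3-list peaks had a higher fold.

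The farther one lay from 128059081 to 128059351 in the input list and from 128059097 to 128059323 in the H3 list, 139.0 kb beyond the gene end. It had 18 reads, and its folds of 5.02 and 4.75 equalled those of the peak nearest to the gene start. Just past this edge of the flank, the input list had a summit 165.1 kb beyond the gene end with 13 reads and a fold of 3.7. The H3 list had one 174.3 kb beyond the gene end with 15 reads and a fold of 4.01.

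**Figure D2:**
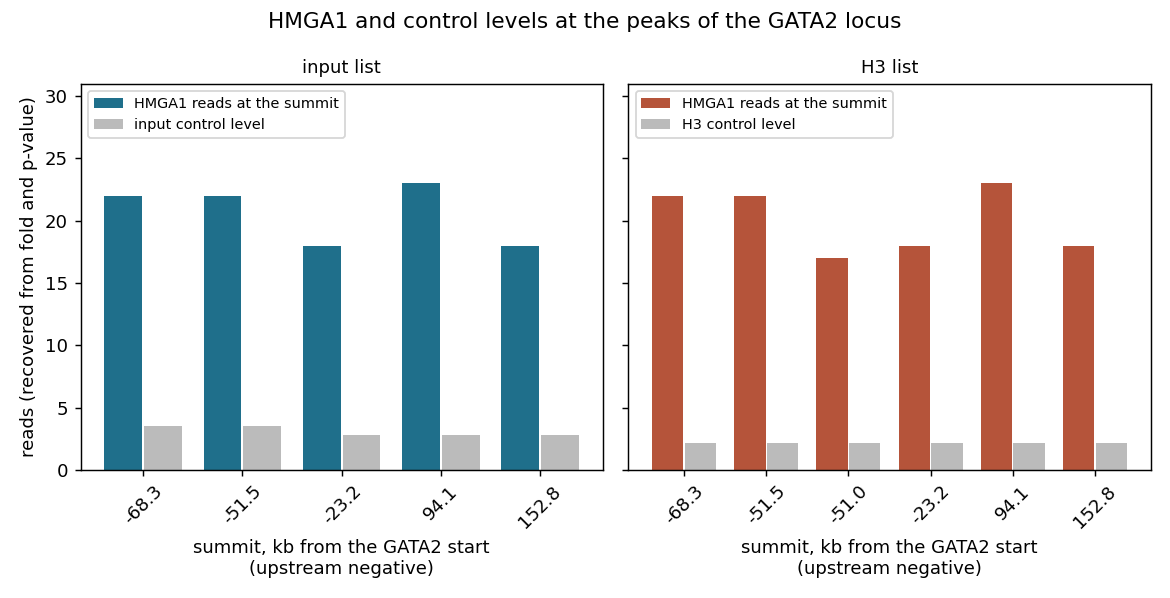
Bars give the recovered HMGA1 reads at each member's summit (colour) and the control level there (grey), both in reads, for the input list (left) and the H3 list (right). Members are ordered by the distance of their summit from the GATA2 start in kb, with upstream values negative. HMGA1 reads lie between 17 and 23, and control levels between 2.19 and 3.56 reads. Before the fold over H3 is taken, HMGA1 reads are multiplied by a fitted factor of 0.787, which the coloured bars do not show. The grey H3 bars are set against these reduced reads, so they are not directly comparable with the other bars.

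All members were close to one another in height. HMGA1 reads ranged from 18 to 23 in the input list and from 17 to 23 in the H3 list. Control levels were often at the floor, as elsewhere. The input level was at its floor at 3 of 5 peaks, against 51.9% of the input-list peaks of chromosome 3 and 69.8% in the rest of the window. H3 was at its floor at 6 of 6 peaks, against 57.7% and 66.7%. These counts are too small to set the members apart. A fold over a floor is understated where the true control is lower still. The 2 peaks with input above its floor were those 51.5 and 68.3 kb upstream. At these sites the fold over H3 (5.74) was higher than the fold over input (5.05). At the 3 peaks with both controls at their floors the fold over H3 was the lower one. That order is set by the fold's formula, which adds 1 to reads and 1 to control. Over H3 these are added to HMGA1 reads multiplied by 0.787 and to a floor lower by the same factor. The order would be the same at any peak with both controls at their floors.

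Every input-list member had an H3-list counterpart. The share was 5 of 5 (100%, Wilson 95% interval 56.6 to 100), against 61.0% of the input-list peaks of chromosome 3, a value inside that interval. Among the chromosome 3 peaks in the members' range of 18 to 23 reads, 87.9% had a counterpart. In the other direction 6 of 6 H3-list members overlapped an input-list peak (interval 61.0 to 100), against 98.9% on chromosome 3. A fold of at least 4 was reached by 5 of 5 members over input, against 62.8% of the chromosome 3 peaks, and by 6 of 6 over H3, against 86.8%. These counts are too small to set the members apart from the chromosome.

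The input list had no weak peak within the flanks of 150 kb. No member had fewer than 18 reads, whereas 47.7% of the input-list peaks of chromosome 3 and 48 of the 86 other input-list peaks of the window did. This depends on the flank's edge. A flank of 200 kb takes in weaker input-list peaks, among them the summit 165.1 kb beyond the gene end, with 13 reads. In the H3 list, 14.4% of the chromosome 3 peaks and 6 of the 45 others of the window lay under the lowest member, which had 17 reads. With 5 and 6 members these differences have no test.

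The locus had few peaks for its length. It held 15.9 peaks per Mb over input (exact Poisson 95% interval 5.17 to 37.2), against 72.5 in the rest of the window and 142.1 on the rest of chromosome 3. Over H3 it held 19.1 peaks per Mb (7.02 to 41.6), against 37.9 and 89.3. Over input the interval of the locus lay below both other densities. Over H3 it lay below that of the chromosome and held that of the rest of the window. Relative to chromosome 3 as a whole the density was 0.112 times over input and 0.214 times over H3. The value over input depends on the edge of the flank and on the threshold: it was 0.221 times with flanks of 200 kb, which hold 13 peaks, 0.179 times among peaks with a fold of at least 4, and 0.169 times among peaks with a −log10 q of at least 5. Over H3 it was 0.298 times with flanks of 200 kb, which hold 11 peaks. The intervals cover counting error only, and peaks cluster along the chromosome, so they are too narrow. Peaks covered 0.65% of the locus over input and 0.512% over H3, against 5.04% and 2.89% of the rest of the chromosome.

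Chromosome 3 was also divided into stretches of 313.8 kb, the length of the locus. Of the 622 stretches with a peak in the input list, 8 (1.29%) held 5 peaks or fewer, the locus among them, and the median stretch held 40 (quartiles 26 and 60.8). In the H3 list 52 of 622 (8.36%) held 6 peaks or fewer, and the median held 24.5 (quartiles 14 and 39). The locus thus lay nearer to the sparse end in the input list than in the H3 list. The H3 list is the shorter one. The same reads also reach a weaker p there: with the control at its floor, 18 reads had a −log10 p of 9.79 over input and 7.9 over H3. What part list length or the weaker p has in this difference was not tested.

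**Figure D3:**
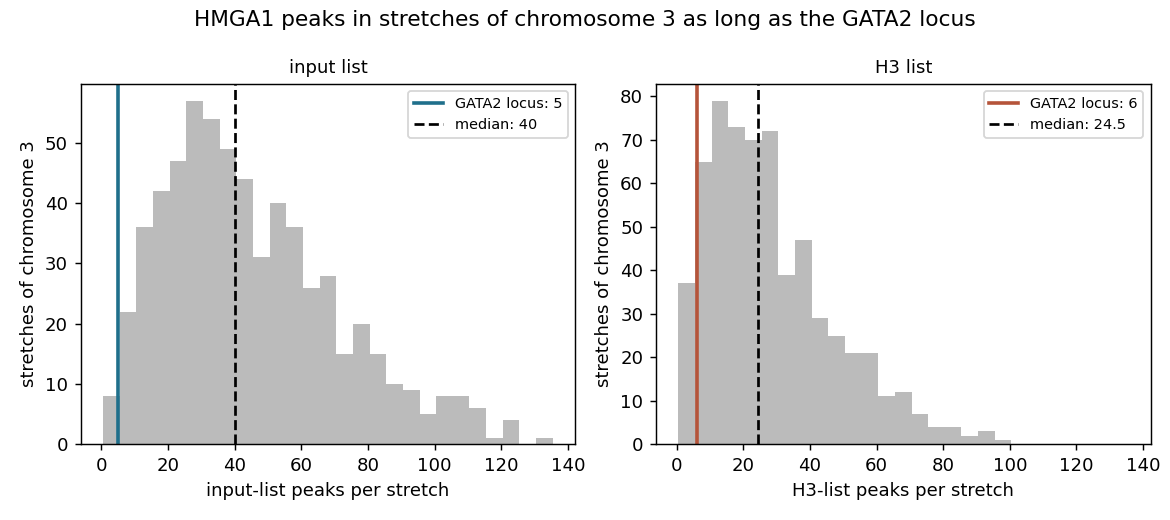
Histograms of the number of peaks (horizontal axis) in stretches of chromosome 3 as long as the GATA2 locus (vertical axis, number of stretches), for the input list (left) and the H3 list (right). The coloured line is the locus, with 5 and 6 peaks, and the dashed line the median stretch, with 40 and 24.5.

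The surrounding window was itself sparse, and unevenly so. It held 91 input-list and 51 H3-list peaks, or 0.427 and 0.381 times the density of chromosome 3. In bins of 100 kb, the bin from 128100000 to 128199999, which ends inside GATA2, held 1 peak in each list. The next bin, from 128200000, held 3 input-list and 4 H3-list peaks, and the bin from 128300000 held 1 in each. On the downstream side of the gene, the 6 bins from 127500000 to 128099999 held 6 to 11 input-list peaks each and 1 to 5 H3-list peaks each. On the upstream side, the 6 bins from 128400000 held 2 to 9 input-list peaks and 1 to 8 H3-list peaks.

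The highest folds of the window lay outside the locus, on the upstream side. Over input the highest was 10.3, with 38 reads, in the peak from 128674886 to 128675205, 463.0 kb upstream of the GATA2 start. It was followed by a fold of 8.73 with 32 reads, from 128459657 to 128460004, and by 2 peaks at 7.93 with 29 reads, which started at 128476223 and 128866578. Over H3 the highest folds were 8.7 (128388892 to 128389180, 34 reads), 8.55 (128799646 to 128799916, 34 reads) and 8.21 (128459679 to 128459967, 32 reads). The best member, the one nearest downstream, ranked 12 in the window in each list.

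In RefSeq's gene order on GRCh38.p14, the protein-coding genes next to GATA2 were DNAJB8, a co-chaperone gene, and then EEFSEC, the elongation factor for selenocysteine, on the side past its end. On the side of its start they were RPN1, a subunit of the oligosaccharyltransferase complex, and then RAB7A, a late endosome GTPase. This order names neighbours only. The peaks are on hg19, so none was assigned to these genes.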

How the data were processed

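ChIP was done on sonicated nuclei, per the labels' protocols, and peaks were called with MACS2 on hg19, per the submitters' processing notes. For the aligner, the read filters and the MACS2 version, nothing is given in the sources used here. In the authors' deposited lists stand each peak's interval, summit offset, fold (a ratio of HMGA1 over the control), −log10 p-value, −log10 q-value and score. Peak names carry another prefix than HMGA1, and the ChIP was taken to be the HMGA1 library. Total depth is unknown.

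Reads were recovered for chromosome 3 as the whole HMGA1 pileup at which the fold, taken as pileup plus 1 over control plus 1, gives back the Poisson p-value. All 28098 input-list and 17655 H3-list peaks fitted within 0.001 of −log10 p, for H3 with HMGA1 reads multiplied by 0.787. That factor is not among the authors' values. It was chosen for the best fit on a sample of these H3-list peaks. Reads were equal at 7798 of 7798 shared summits. The recovery of reads was tested on simulated peaks with the factor known, so the fit of 0.787 was not tested there. The simulated reads did not go as low as the lowest recovered ones.

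The members and lists were chosen with earlier results of these data known. Peaks named were all members, those at the edges of the flanks, and the 3 highest folds of each list elsewhere in the window, ties included. Overlap meant at least 1 bp. Alternatives were other flanks, thresholds and overlaps. Coordinates are 1-based on hg19, whose annotation was not used here. Tools were Python 3.11.15, numpy 2.4.6, pandas 2.3.3, scipy 1.17.1, statsmodels 0.14.6 and matplotlib 3.10.9.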

Additional observations from a re-analysis of the deposited data

How the results depend on the processing

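With 1 library per antibody no replicate could be left out. No paired analysis was possible because each group has 1 sample. A flank of 200 kb in place of 150 kb took in 13 input-list and 11 H3-list peaks, against 5 and 6, and gave median folds of 5.02 over input and 5.74 over H3, against 5.05 and 5.25. A flank of 100 kb gave a median fold of 5.74 over H3. With each list limited to its 20000 peaks of highest q, the locus held none, so its density relative to chromosome 3 was 0 over input and 0 over H3. The full lists hold 385953 and 263033 peaks, so most peaks are dropped by this limit. With 5 and 6 members, a value of 0 is not read as depletion. The peak-free stretch around GATA2 was then 1520 kb over input and 6657 kb over H3, where fewer peaks are kept by construction. With stretches of chromosome 3 moved along by 50% of their length, 0.644% held 5 input-list peaks or fewer, against 1.29%. The alternatives for the peak-free stretch and the stretches were chosen after seeing the data. The density relative to chromosome 3 over input was 0.221 with flanks of 200 kb, 0.179 with a fold of at least 4 and 0.169 with a −log10 q of at least 5, against 0.112. These moved by over 1.5 times, although they lie inside the wide 95% interval that 5 peaks allow. In the other alternatives counts stayed within 1.5 times, and shares, medians, lengths and densities were unchanged or inside the 95% interval of the value reported. No chromosome 3 peak had under 8 reads over input or 11 over H3, values reached with the control at its floor. Where the control is higher, more reads are needed, and control levels inside GATA2 are not known. The empty gene therefore does not show that HMGA1 is absent there.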
